A study of Mus musculus with 6 samples.

Results

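Transcripts of 3 families of lipid droplet proteins were followed in the livers of mice whose gene for the transcription factor Slug was targeted in hepatocytes. The families are the CIDE proteins (Cidea, Cideb and Cidec), the perilipins (Plin1 to Plin5) and the FIT proteins (Fitm1 and Fitm2), 10 genes chosen by name among the 22180 genes measured. For each gene the brightest probe set was read. Of the 10 genes, 9 had a probe set of their own. The probe set of Cideb is annotated to Cideb together with Nop9, so no value is given for Cideb.

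The livers came from 6 male C57BL/6J mice, 1 Affymetrix whole-transcript array per mouse and 3 mice per group. Con mice have the genotype Slug f/f, a Slug gene (symbol Snai2) flanked by loxP sites. HKO mice (SlugHKO) carry the same floxed gene and an albumin-CreERT2 driver, that is, a Cre recombinase that tamoxifen activates and that is made from the albumin promoter, which works in hepatocytes. The other cells of the liver are not targeted. All 6 mice received a high fat diet (60% of calories from fat) from 8 weeks of age for 11 weeks, and there was no group on chow, so the diet itself has no comparison here. The labels say neither whether Con littermates had the Cre transgene nor how Cre was activated. The comparison of HKO with Con addresses which droplet transcripts differ under high fat feeding when Slug is targeted in hepatocytes.

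A lipid droplet is a core of triglyceride and cholesterol ester under a single phospholipid layer. It buds from the endoplasmic reticulum, where FIT proteins promote its formation. Perilipins coat its surface and control the access of lipases, and CIDE proteins sit where droplets touch and move lipid from the smaller to the larger one. Hepatocytes normally make Cideb, Plin2, Plin3 and Plin5, while Cidea and Cidec, best known from brown and white fat, appear in liver as it fills with fat.

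The arrays give log2 values from RMA, on which 1 unit is a doubling of signal. The 6 arrays correlated at 0.986 or above over all genes. No detection calls were available, so olfactory receptor genes, most of which were taken to be silent in liver, served as a guide to background: 95% of 1105 such genes lay below 3.84 to 3.95, depending on the array. Each probe set has its own background, so this level is only a guide. All 7 hepatocyte markers lay above this guide on every array, as the tissue label says, and their summed signal was 13.88 to 13.94 in Con and 13.87 to 14.07 in HKO on the log2 scale. Of the 7, 0 passed in limma and 5 had a higher mean in HKO (median log2 change 0.12). There were 2 markers higher at an unadjusted p under 0.05, against 5.31% of all genes. The same 2 were higher without overlap of the groups, against 8.05% of all genes. These were Serpina1a, of the alpha-1-antitrypsin family (8.63 in Con, 9.04 in HKO), and Cps1, of the urea cycle (10.94 and 11.21), while Alb, the gene of albumin, stood at 12.44 and 12.45. Snai2, the targeted gene, stood at 7.74, 7.69 and 7.39 on the Con arrays and at 4.62, 5.23 and 5.69 on the HKO arrays. All 6 values lay above the background guide, and the source of the signal left in HKO was not tested. Snai2 was lower on each HKO array than on any Con array (limma adjusted p = 0.0145). The call depends on single arrays: the limma adjusted p was 0.0758, 0.0927 and 0.0621 without Con replicate 1, Con replicate 2 and HKO replicate 2, and under 0.05 without each of the other 3 arrays.

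Of the 9 measured droplet genes, Cidea fell in HKO livers (limma adjusted p under the threshold of 0.05 over all genes), none rose and 8 did not pass. Over all genes 0.203% passed, made up of 0.113% lower and 0.0902% higher in HKO. At an unadjusted p under 0.05, 5 of the 9 (Cidea, Cidec, Plin2, Plin3 and Plin4) were lower and 0 higher, against 6.56% and 5.31% of all genes. The HKO values of 4 genes (Cidea, Cidec, Plin2 and Plin3) lay below every Con value, where 10.1% of all genes did so. The median log2 change of the 9 genes was -0.54, against -0.00808 over all genes. As the droplet genes were chosen with earlier results of these data known, these counts are a description only. In liver tissue, fewer cells of a type and less RNA per cell cannot be told apart.

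**Figure D1:**
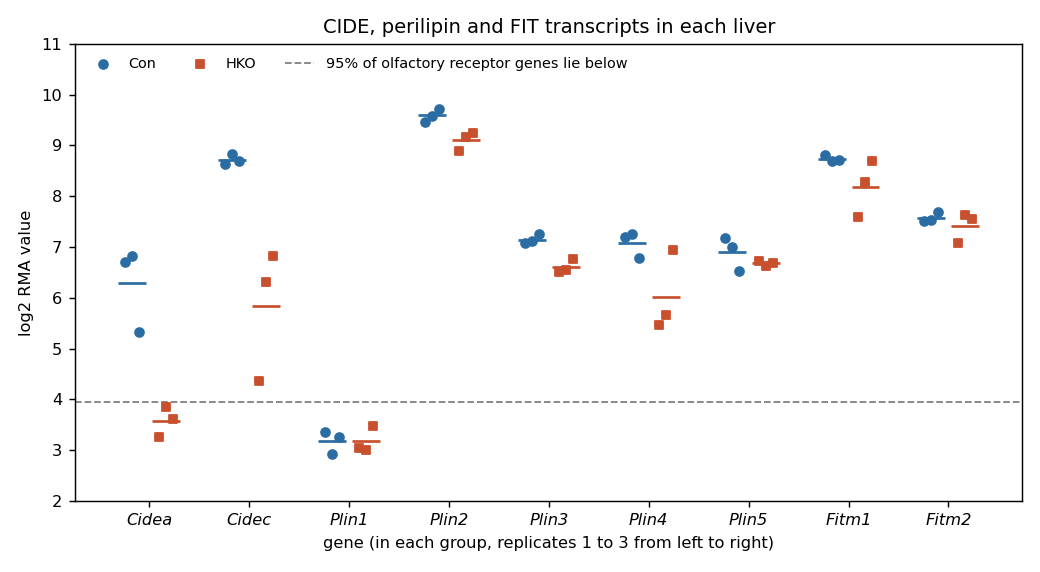
Each point is the log2 RMA value of one liver (circles Con, squares HKO, 3 livers each), each short bar is a group mean, and the dashed line at 3.95 is the level below which 95% of olfactory receptor genes lay. Cidea and Cidec show the widest gaps between groups, Plin1 lies below the line on all 6 arrays, and Plin4 and Fitm1 have 1 HKO liver among the Con values.

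Among the CIDE genes, Cidea, whose protein enlarges droplets in fatty liver, had values of 6.71, 6.82 and 5.32 in Con and 3.26, 3.85 and 3.61 in HKO. The groups did not overlap, Con replicate 3 was the low one of its group, and all 3 HKO values lay below the background guide of their arrays. The Con mean was 6.28 ± 0.84 (SD, n = 3) and the HKO mean 3.58 ± 0.30 (SD, n = 3), a log2 change of -2.71 ± 0.37 (SE) with a limma adjusted p of 0.0430. As the HKO livers are not shown to hold Cidea above background, the size of the fall is not settled by this value. By exact two-sided permutation of the 6 arrays, p was 0.1, and groups of 3 cannot give a smaller one. The call rests on all but 1 of the arrays: the limma adjusted p was 0.00191 without Con replicate 3, but 0.156 or 0.164 when Con replicate 1 or 2 was left out, and 0.133, 0.0959 or 0.148 when HKO replicate 1, 2 or 3 was.

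Cidec, whose protein drives the fusion of droplets into large ones, was bright and even in Con, at 8.63, 8.83 and 8.69, and uneven in HKO, at 4.35, 6.32 and 6.82. All 3 HKO values lay below the Con values, and all 6 lay above the background guide. The change was -2.89 ± 0.53 (SE) on the log2 scale, a mean signal 7.39-fold lower, with a 95% confidence interval from -4.11 to -1.66. It did not pass over all genes (limma adjusted p = 0.107). The Con livers had an SD of 0.10 (n = 3), the HKO livers one of 1.30 (n = 3). Without HKO replicate 1, the lowest liver, the change was -2.15 and the limma adjusted p 0.0180.

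Promoter windows from RefSeq (build GRCm38.p6, 250 bases before to 50 after a transcript start) were searched for the E-box bound by Snail family factors, CAGGTG or CACCTG on the other strand, which is one form of the general E-box CANNTG. Of the 10 genes, 9 had a window, 11 windows in all, and none was held for Cidea. Both strands were searched. The windows shown are those of Cidec, whose log2 change of -2.89 was measured above the background guide in both groups, and of Plin5 and Fitm1, the genes whose windows hold the Snail form (for Plin5, the first of its windows). Capitals mark every CANNTG. The Cidec windows are at chr6:113435711-113436010 and chr6:113434715-113435014 (minus strand), that of Plin5 at chr17:56117499-56117798 (minus strand) and that of Fitm1 at chr14:55575424-55575723 (plus strand), each printed 5′ to 3′ on the strand of its gene.
Cidec, first start: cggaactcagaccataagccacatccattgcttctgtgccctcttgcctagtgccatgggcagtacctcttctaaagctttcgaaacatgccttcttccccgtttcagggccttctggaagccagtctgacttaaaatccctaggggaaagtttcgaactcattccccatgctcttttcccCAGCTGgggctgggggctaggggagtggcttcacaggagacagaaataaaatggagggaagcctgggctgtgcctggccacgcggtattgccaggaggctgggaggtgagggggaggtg
Cidec, second start: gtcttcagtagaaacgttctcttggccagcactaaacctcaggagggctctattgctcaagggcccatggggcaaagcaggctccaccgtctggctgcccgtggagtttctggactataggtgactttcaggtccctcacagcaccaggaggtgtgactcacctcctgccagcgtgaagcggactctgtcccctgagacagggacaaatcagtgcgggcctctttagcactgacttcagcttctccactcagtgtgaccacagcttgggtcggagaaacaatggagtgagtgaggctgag
Plin5, first start: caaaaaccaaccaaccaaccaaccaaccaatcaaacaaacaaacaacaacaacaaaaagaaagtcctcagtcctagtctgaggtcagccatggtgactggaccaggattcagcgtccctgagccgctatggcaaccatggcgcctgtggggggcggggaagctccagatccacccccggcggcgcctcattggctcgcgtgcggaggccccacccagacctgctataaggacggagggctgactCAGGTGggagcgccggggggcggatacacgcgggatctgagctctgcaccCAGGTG
Fitm1: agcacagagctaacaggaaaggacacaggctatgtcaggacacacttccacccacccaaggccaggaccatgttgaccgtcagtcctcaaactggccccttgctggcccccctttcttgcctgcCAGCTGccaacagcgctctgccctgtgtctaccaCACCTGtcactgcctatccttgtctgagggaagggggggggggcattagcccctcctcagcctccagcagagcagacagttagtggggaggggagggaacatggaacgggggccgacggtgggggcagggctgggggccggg

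Neither Cidec window holds CAGGTG or CACCTG. The upstream one holds a single E-box of another form, and the other holds none. The Plin5 window has CAGGTG at positions 245 and 295, counted from 1 at the 5′ end of the window, and the Fitm1 window has CACCTG at position 159. In all, 3 of the 11 windows (2 of Plin5 and 1 of Fitm1) hold the Snail form, against 20.2% of 32851 windows over all genes. The 2 Plin5 windows overlap, and the site at position 295 of the first is the one at position 45 of the second. Any E-box occurs in 7 of the 11, against 72.3% of all windows. The direct repeat bound by PPAR and RXR, searched as AGGTCA, any 1 base and AGGTCA again, is in 0 of the 11 and in 0.0396% of all windows. The TATA motif TATAAA is in 1 of the 11 (that of Cideb) and in 13.6% of all windows. A match is a run of letters and no evidence of binding, and these windows leave out distal elements.

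The log2 changes of the perilipins ran from -1.06 to -0.01, and 0 of the 5 passed in limma, where 0.203% of all genes did. Among the 5, 3 (Plin2, Plin3 and Plin4) were lower at an unadjusted p under 0.05, against 6.56% of all genes. Plin2, the main droplet coat of hepatocytes, had values of 9.47, 9.59 and 9.72 in Con and 8.90, 9.17 and 9.25 in HKO. The groups were close but did not overlap, with a change of -0.49 ± 0.13 (SE), 1.40-fold lower (95% confidence interval of the log2 change -0.78 to -0.19, limma adjusted p = 0.223). Plin3, a widely expressed perilipin that moves between the cytosol and new droplets, stood at 7.07, 7.11 and 7.26 in Con and at 6.51, 6.55 and 6.76 in HKO. Again no HKO value reached the Con values. The change was -0.54 ± 0.11 (SE), 1.45-fold lower (interval -0.80 to -0.28), with a limma adjusted p of 0.138. For both genes the exact two-sided permutation p was 0.1.

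Plin4, a perilipin of white fat that coats small new droplets, split the HKO livers. Its values were 7.21, 7.26 and 6.78 in Con and 5.46, 5.66 and 6.95 in HKO. HKO replicates 1 and 2 lay below all Con livers, and HKO replicate 3 lay above Con replicate 3. The log2 change was -1.06 ± 0.35 (SE, limma adjusted p = 0.305), and -1.52 without HKO replicate 3 (limma adjusted p = 0.0547). RefSeq places part of Hdgfl2 over Plin4, and whether probes lie in the shared stretch is not known here. Plin5, the perilipin of oxidative tissues that links droplets to mitochondria, is the neighbour of Plin4 in RefSeq's gene order and had values of 7.18, 7.0 and 6.53 in Con and 6.72, 6.63 and 6.69 in HKO. Here the spread was in the Con livers, all HKO values lay inside the Con range, and the change was -0.23 ± 0.16 (SE, interval -0.60 to 0.15, limma adjusted p = 0.642). It was -0.09 without Con replicate 1 and -0.41 without Con replicate 3, and did not pass in either case. Plin1, the coat of the adipocyte droplet, lay between 2.92 and 3.47 on the 6 arrays, below the background guide on each, with means of 3.18 in Con and 3.17 in HKO. Values at that level do not show whether the transcript was present.

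The 2 FIT genes did not pass either. Fitm2, the widely expressed FIT protein, had values of 7.51, 7.54 and 7.69 in Con and 7.08, 7.63 and 7.55 in HKO. Only HKO replicate 1 lay below the Con livers. The log2 change was -0.16 ± 0.16 (SE, interval -0.52 to 0.20, limma adjusted p = 0.749). Fitm1, known mainly from skeletal muscle and heart, stood at 8.81, 8.69 and 8.71 in Con and at 7.58, 8.29 and 8.69 in HKO, a log2 change of -0.55 ± 0.24 (SE, limma adjusted p = 0.431). HKO replicate 3 lay within the Con range, and without HKO replicate 1 the change was -0.25. Fitm1 was the one measured droplet gene with more than 1 probe set. The other probe set lay near the background guide, with means of 3.76 in Con and 3.81 in HKO and values above the guide on 2 of the 6 arrays. The bright and the dim probe set thus disagree on whether Fitm1 is well above background in these livers.

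**Figure D2:**
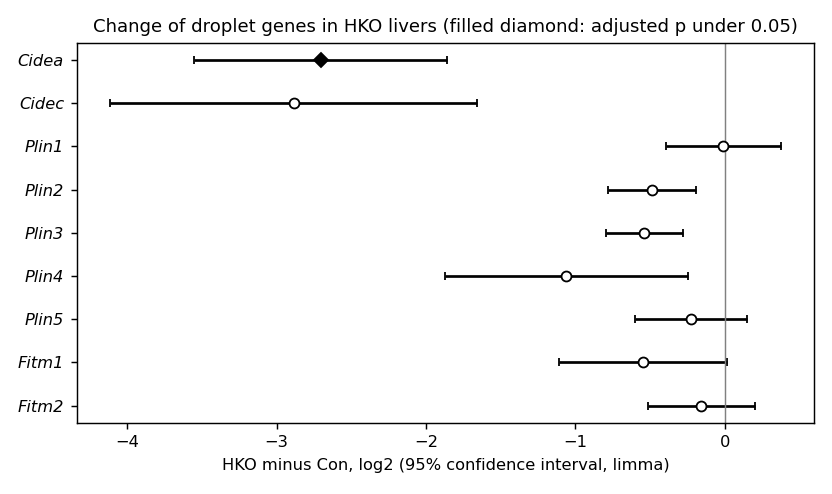
Each row is one gene, with the HKO minus Con difference on the log2 scale as a point and its 95% confidence interval from limma as a bar (3 livers per group). Cidea (-2.71) is the one gene with an adjusted p under 0.05, the Cidec interval runs from -4.11 to -1.66, and the intervals of Plin1, Plin5, Fitm1 and Fitm2 include 0.

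The HKO livers did not vary evenly. HKO replicate 1 had the lowest value of the 3 HKO livers in 7 of the 9 genes (all but Plin1 and Plin5), against 31.7% of all genes, a pattern looked at after the values were seen. That liver also had the lowest Snai2 (4.62). The SD was larger in HKO than in Con for 7 of the 9 genes, against 54.1% of all genes. Pparg, the nuclear receptor that switches on droplet genes in fat and in fatty liver, is given here with its values known and was likewise uneven. It stood at 6.94, 7.08 and 6.75 in Con and at 6.03, 6.80 and 7.34 in HKO, so HKO replicate 1 was the lowest of the 6 livers and HKO replicate 3 the highest. Its log2 change was -0.20 ± 0.29 (SE, limma adjusted p = 0.837).

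**Figure D3:**
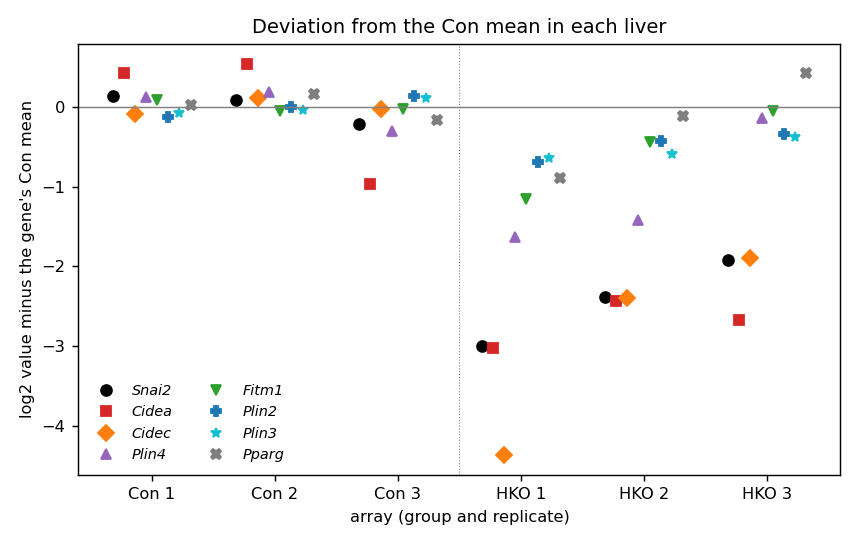
Each point is the log2 value of a gene on one array minus that gene's Con mean, for Snai2, 6 droplet genes and Pparg (points are set apart sideways for legibility). Cidea, Cidec, Plin2, Plin3 and Snai2 lie below the Con livers on all 3 HKO arrays, while Plin4, Fitm1 and Pparg are low in HKO replicate 1. In HKO replicate 3, Plin4 and Fitm1 are back at or near the Con values and Pparg lies above every Con liver.

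The genes whose array profiles were closest to those of Cidec and Cidea were sought by the root mean square difference between profiles, each centred on its own mean over the 6 arrays. For Cidec these were Sprr1a, a small proline-rich protein of stressed epithelia (0.40 log2 units), Ifi27l2b, of an interferon-inducible family (0.45), and Snai2 itself (0.52). For Cidea they were Snai2 (0.47), the surface protein gene Ly6d (0.47) and the beta tubulin gene Tubb2a (0.53). Cidea and Cidec differed from each other by 0.78. Sprr1a, nearest by construction of the measure, had values of 7.07, 7.41 and 7.69 in Con and 3.53, 4.74 and 6.31 in HKO (limma adjusted p = 0.169). In HKO both genes were lowest in replicate 1 and highest in replicate 3, while in Con Sprr1a was highest in replicate 3 and Cidec in replicate 2. With 6 arrays in 2 groups, the measure picks genes with a group difference of like size.

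Of 24 measured partners of these proteins, taken from lists of droplet genes, 0 passed limma's adjusted p of 0.05, against 0.203% of all genes. Among the 24, 3 were lower and 1 higher at an unadjusted p under 0.05, against 6.56% and 5.31% of all genes. Of 7 genes of droplet formation (1 of the 8 listed, Acsl3, was not measured by a probe set of its own), the median log2 change was -0.02, with the whole range from -0.15 to 0.12. Dgat2, the main triglyceride-making enzyme of the liver, stood at 10.22 in Con and 10.33 in HKO (0.10 ± 0.09, SE), and Dgat1, which makes triglyceride from imported fatty acids, at 5.57 and 5.41 (-0.15 ± 0.13, SE). At an unadjusted p under 0.05 none of these 7 genes passed.

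The median log2 change of 7 genes of droplet lipolysis was -0.14. Among them 1 was higher and 2 were lower at an unadjusted p under 0.05, against 5.31% and 6.56% of all genes. Pnpla2, the lipase that starts triglyceride breakdown, had values of 7.86, 8.15 and 8.04 in Con and 8.22, 8.54 and 8.69 in HKO (0.47 ± 0.14, SE, limma adjusted p = 0.283). Every HKO liver lay above every Con liver, which 8.05% of all genes showed. Pnpla3, the relative of Pnpla2 that lipogenic signals induce, stood at 4.07, 3.96 and 4.78 in Con and at 3.16, 3.85 and 3.48 in HKO (-0.77 ± 0.24, SE, limma adjusted p = 0.291), with the HKO livers below the background guide. Among 10 other droplet surface genes, the median change was 0.00285. Hsd17b13, a hepatocyte droplet enzyme, was tightly grouped, with a Con mean of 10.58 ± 0.04 (SD, n = 3), an HKO mean of 10.29 ± 0.01 (SD, n = 3) and a limma adjusted p of 0.297. Nsdhl, a sterol synthesis enzyme found on droplets, had a change of 0.68 ± 0.37 (SE, limma adjusted p = 0.536).

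Of 12 transcription regulators, 0 passed in limma, and at an unadjusted p under 0.05, 3 were higher and 1 was lower, against 5.31% and 6.56% of all genes. The HKO values of 5 regulators lay above every Con value and those of 1 below, against 8.05% and 10.1% of all genes. Srebf1, which drives fatty acid synthesis genes, stood at 8.32 in Con and 7.69 in HKO (-0.64 ± 0.18, SE, limma adjusted p = 0.254). Rxra, the partner receptor of the PPARs, stood at 8.54 and 8.81 (0.27 ± 0.10, SE, limma adjusted p = 0.341). The fatty acid receptor Ppara, named here with its values known, stood at 8.26 and 8.22 (interval of the change -0.32 to 0.24).

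Other genes that respond to PPARgamma in fatty liver were lower in mean in 8 of 8 cases, with a median log2 change of -0.70, against -0.00808 over all genes, where 51.8% had a lower mean. The fall was not uniform: Aqp7 (-0.05 ± 0.14, SE) and Angptl4 (-0.02 ± 0.13, SE) hardly differed between the groups. At an unadjusted p under 0.05, 6 were lower and 0 higher, against 6.56% and 5.31% of all genes. Mogat1 and Fabp4 fell past the threshold in limma, where 0.113% of all genes did so, and 6 of the 8 did not pass. The list shares its theme with the droplet genes and was drawn up with earlier results for Cidea, Mogat1 and Fabp4 known, so it is not independent of them. Mogat1, an enzyme that adds a fatty acid to monoacylglycerol, had values of 5.05, 5.63 and 5.37 in Con and 3.40, 3.60 and 4.12 in HKO (limma adjusted p = 0.0344), so HKO replicates 1 and 2 lay below the background guide. Fabp4, a fatty acid carrier of adipocytes and macrophages, had values of 7.33, 7.61 and 6.93 in Con and 5.99, 6.11 and 6.12 in HKO (-1.22 ± 0.17, SE, limma adjusted p = 0.0444). Both calls ended without single arrays: the highest limma adjusted p was 0.157 for Mogat1, without Con replicate 2, and 0.173 for Fabp4, without Con replicate 1. Mogat1 passed only without HKO replicate 3 and Fabp4 only without Con replicate 3. The fatty acid transporter Cd36, chosen after its values were seen, stood at 9.62, 9.63 and 9.54 in Con and at 8.55, 8.94 and 9.32 in HKO (-0.66 ± 0.18, SE, limma adjusted p = 0.237).

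**Figure D4:**
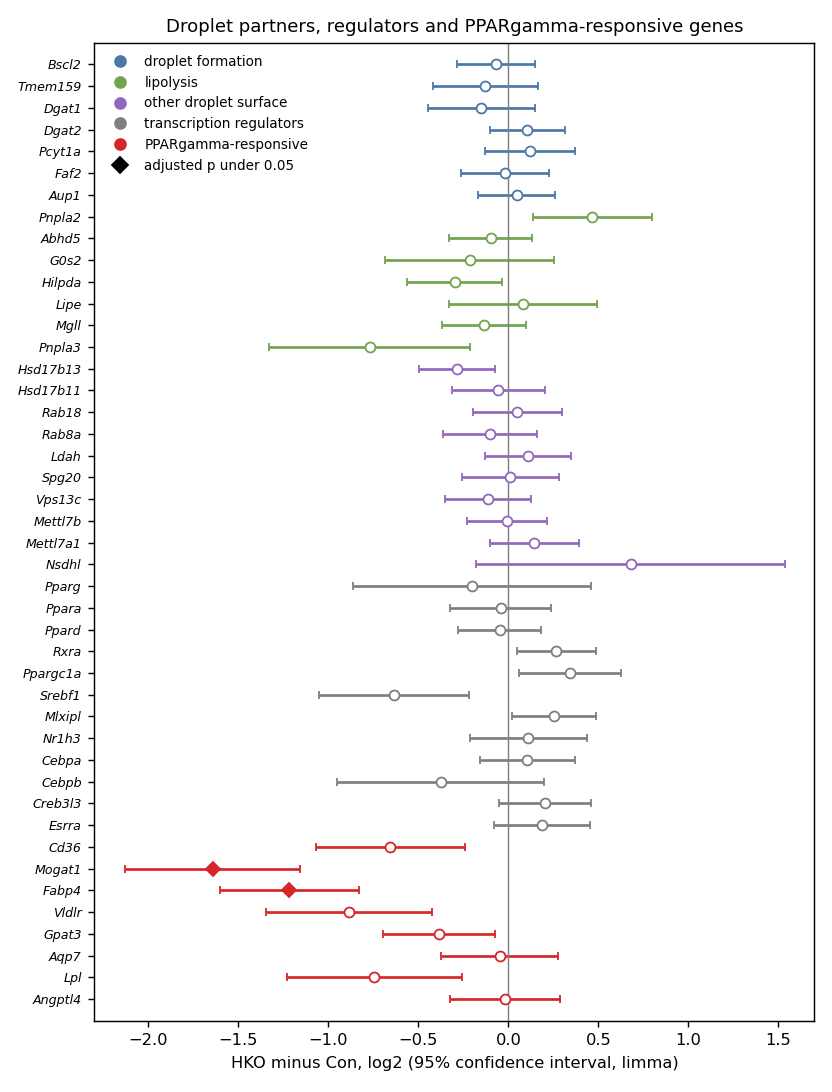
Each row is a listed gene, coloured by list, with the HKO minus Con log2 difference and its 95% confidence interval from limma (3 livers per group). Mogat1 and Fabp4, drawn as filled diamonds, are the only listed genes of this plot with an adjusted p under 0.05, and the genes of droplet formation lie between -0.15 and 0.12.

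Markers of other cells that make these proteins were read beside them. Of 8 listed adipocyte markers, Cfd and Trarp1 were not measured. Of the 6 measured, 0 passed in limma (1 was higher at an unadjusted p under 0.05, against 5.31% of all genes). None lay above the background guide on all 6 arrays, and 3 lay below it on every array. Retn and Nnat lay above it on 5 of the 6 arrays and Slc7a10 on 4. The summed signal of the 6 markers was 6.01 to 6.15 in Con and 6.10 to 6.18 in HKO on the log2 scale. The defining adipocyte genes Adipoq (2.96 in Con, 3.23 in HKO) and Lep (1.76 and 1.96) lay below the guide. Of 7 skeletal muscle markers, 6 lay below the guide on every array, and their summed signal was 5.85 to 6.04 in Con and 5.75 to 5.91 in HKO. Markers of lipid-associated macrophages, which hold droplets of their own, were lower in mean in 4 of 4 measured cases, against 51.8% of all genes. At an unadjusted p under 0.05, 2 of them were lower, against 6.56% of all genes. This list, too, was chosen with earlier results of these data known. Only Cd9 (-0.18 ± 0.14, SE) lay above the guide on all 6 arrays. Trem2 (3.74) and Gpnmb (3.52) lay below it in HKO replicate 1. The summed signal of the 4 markers was 7.06 to 7.31 in Con and 6.55 to 6.88 in HKO. Among them Itgax fell (limma adjusted p = 0.0280; 0.149 without Con replicate 2 and above 0.05 without each of the other arrays), to an HKO mean of 3.42, below the guide. The part of these macrophages in the droplet gene values was not tested. Of 6 Kupffer cell, 6 stellate cell and 6 endothelial markers, 0 passed in limma, with median changes of -0.09, -0.03 and -0.17. In these lists 1, 1 and 3 genes were lower and 0 higher at an unadjusted p under 0.05. The shares over all genes were 6.56% and 5.31%. The 3 endothelial genes were Lyve1, Pecam1 and Cdh5. Of the endothelial markers, 2 (Pecam1 and Cdh5) were lower and 0 higher without overlap, against 10.1% and 8.05% of all genes.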

How the data were processed

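Liver RNA of 6 mice (400 ng each) was hybridised to 1 array per mouse. The values the authors deposited are log2 signals; the submitters' processing notes name RMA and R 3.3.0. RMA sets the distributions of the arrays equal and compresses changes of dim genes. For the array design, no genome build is named. Of 41345 probe sets, 23521 have 1 gene in the platform annotation, 1814 several and 16010 none. The symbols were checked by Entrez identifier against RefSeq genes of GRCm38.p6 (23328 found, 0 changed). The brightest probe set stood for each of 22180 genes, with no filter on low values.

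HKO was compared with Con by limma 3.58.1 under R 4.3.3, using lmFit and eBayes with a single term for the group. Tests were two-sided, p-values were adjusted by Benjamini and Hochberg's method across the 22180 genes, and 0.05 was the threshold. The SEs are limma's moderated ones. The steps were tested on simulated data. The labels name each mouse separately, so p-values measure the spread between mice. Depth does not apply to arrays, and precision is limited by how few arrays there are.

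The droplet genes and the lists were chosen with earlier results of these data known. The genes named are the 10 droplet genes and Snai2, the members of each list past the threshold (up to 4) or otherwise those 2 with the lowest p, and the 3 genes nearest in profile to the 2 droplet genes with the largest SD. For marker lists these are printed in part. Exceptions are said in the text, and some listed genes appear under older symbols of the annotation. Alternatives were other normalizations, filters, probe set choices, variance models, weighted arrays, a replicate block, a threshold of 0.10 and leaving out each array. Plots used matplotlib 3.10.9 (Python 3.11.15).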

Additional observations from a re-analysis of the deposited data

How the results depend on the processing

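The number of droplet genes past the threshold was 1 (Cidea) and stayed 1 with arrays centred, array weights, a robust variance, the mean of all probe sets and either filter on dim genes. It was 0 after a second quantile normalization (Cidea at adjusted p = 0.05004, just above the threshold), with each probe set as its own test and with a limma fit that shares no variance between genes, where 6, 5 and 4 of the 9 had an unadjusted p under 0.05. With a variance trend it was 3 (Cidea, Cidec and Plin3). Leaving out single arrays gave 0 to 1: Cidea without Con replicate 3, Cidec without HKO replicate 1. Over all genes the count of 45 became 138 with genes above the median level only, 215 with the trend, 115 at a threshold of 0.10, 4 with every probe set, 0 without shared variance (2422 at an unadjusted p under 0.05), and 4 to 32 without single arrays. The cause of these moves was not tested, except that some of these fits have fewer arrays or another number of features.

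Same-numbered arrays hardly deviated together (correlations of 0.03, 0.02 and 0.02 over all genes). These were higher than those of the other pairs of a Con and an HKO array, which ran from -0.03 to 0.006. As all lay near 0, the numbers are taken as names only. With the replicate number as a block, 0 droplet genes (5 at an unadjusted p under 0.05) and 3 of all genes passed. The median change of the droplet genes kept its sign, from -0.62 to -0.38 over all alternatives. The signs of Plin1 (-0.16 to 0.076) and Fitm2 (-0.26 to 0.013) turned when single arrays were left out. The positive values of Plin1 were 0.076 and 0.034 with Con replicate 1 or 3 left out, and 0.059 and 0.075 with HKO replicate 1 or 2 left out, and that of Fitm2 was 0.013 with HKO replicate 1 left out. The calls of Snai2, Mogat1, Fabp4 and Itgax ended with the replicate block (adjusted p = 0.0540, 0.0514, 0.1004 and 0.0514), with each probe set as its own test (0.0910, 0.115, 0.142 and 0.0931) and without shared variance (0.234, 0.292, 0.292 and 0.221), and that of Fabp4 also after a second quantile normalization (0.0608). Signal near background limits Cidea in HKO and Plin1 in both groups.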
